A study of Oryza sativa with 7 samples.

Results

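The soluble starch synthases of rice are a family of 8 genes, and their transcripts were followed here in young grains with and without a normal OsbZIP76 gene. The members were taken by identifier: SSI (Os06g0160700), SSIIa (Os06g0229800), SSIIb (Os02g0744700), SSIIc (Os10g0437600), SSIIIa (Os08g0191433), SSIIIb (Os04g0624600), SSIVa (Os01g0720600) and SSIVb (Os05g0533600). All 8 were among the 35825 rows of the expression table, and all 8 passed the filter on low values that left 21454 genes for testing. Their identifiers place them on chromosomes 6, 6, 2, 10, 8, 4, 1 and 5 in that order. The tissue was labelled caryopsis, from the rice cultivar Kitaake, grown in the paddy in summer and sampled 2 days after fertilization. The protocol text names endosperm as the source of RNA, and the labels do not settle which was used. The wild type (WT, Kitaake) gave 3 libraries, the mutant osbzip76-1 gave 2, and the mutant osbzip76-2, labelled with 2, is represented by its replicate 2 alone. The series calls the mutants separate alleles of OsbZIP76, which encodes a basic leucine zipper transcription factor linked to the timing of endosperm cell wall formation. The lesions are not described in the labels, and the level of OsbZIP76 itself was not analysed here, so no transcript checks the genotypes.

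Soluble starch synthases add glucose from ADP-glucose to the growing chains of amylopectin, the branched part of starch, while the granule-bound synthases make amylose. SSI extends the shortest chains, class II enzymes carry these to intermediate length, and class III enzymes make long chains that span the clusters of amylopectin. Class IV enzymes are best known from Arabidopsis, where they take part in starting new granules. In rice SSIIa and SSIIIa are the forms of the filling endosperm, whereas SSIIb and SSIIIb are the forms of leaf and of the early grain. Japonica rice carries an SSIIa protein of reduced activity, so transcript of this gene does not measure enzyme activity.

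Values are in RPKM, that is, reads per kilobase of gene model and scaled by the read total of the library. This allows for gene length and read total, but not for a difference in RNA make-up between libraries. The 6 libraries held 19900850 to 24887952 reads each, and 1 member in 1 library rested on between 278 and 5894 reads. The counting error of a member was therefore 1.3% to 6.0% of its value. WT replicate 2 stood apart from the other 5 libraries, at -61.3 along the first principal component, where the others lay at -2.97 to 30.5. The summed level of 5 endosperm markers (NF-YB1, NF-YB9, FIE1, BT1 and GBSSI) was 97.7 RPKM in that library, against 205 and 204 RPKM in the other WT libraries and 304 to 448 RPKM in the mutants. None of the 5 was at 0 in any library, and BT1 and GBSSI among them are themselves starch genes. Most of the difference in the sum came from BT1. It was at 12.3 RPKM in WT replicate 2, 111 and 115 in the other WT libraries and 201 to 251 in the mutants. For NF-YB1, NF-YB9 and FIE1 the mutants overlapped the other WT libraries. Each of the 5 had its lowest value in WT replicate 2 apart from FIE1, which had its highest there. MADS29, a marker of nucellus and seed coat, was at 140 RPKM in WT replicate 2, at 98.4 and 110 RPKM in the other WT libraries and at 64.0 to 87.7 RPKM in the mutants. GBSSII, the granule-bound synthase of the pericarp, lay at 95.9 to 123 RPKM in WT and at 78.1 to 100.6 RPKM in the mutants. OSH1, an embryo marker, was at 3.00 to 7.56 RPKM over the 6 libraries. In bulk tissue, fewer cells of a type and less RNA per cell cannot be told apart. The tests of the synthases are therefore given with and without WT replicate 2, and the part of tissue make-up in these results was not tested.

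SSI dominated the family at this stage. It stood at 84.7 ± 4.3 RPKM in WT and 100.1 ± 4.5 RPKM in the mutants (SD, n = 3 each), and in each of the 6 libraries it lay far above the next member. SSI made up 46.6% to 56.5% of the summed RPKM of the 8 genes. The other 7 members lay between 4.31 and 24.1 RPKM. In WT the order by mean was SSI, SSIIIa (19.1 RPKM), SSIVb (16.0 RPKM), SSIIIb (13.9 RPKM), SSIIc (10.5 RPKM), SSIIa (10.4 RPKM), SSIIb (8.05 RPKM) and SSIVa (7.66 RPKM). Below SSI the ranges of every pair of neighbours in this order overlapped. Within libraries SSIVb lay above SSIIIb in all 3, while every other pair of neighbours below SSI changed order between libraries. The WT order of the 7 lower members is therefore resolved only in part. Without WT replicate 2 the order was the same apart from SSIIa, which then stood at 13.4 RPKM above SSIIc at 10.5 RPKM, and no neighbours overlapped over the 2 remaining libraries. In the mutants SSIIa held the third place with 19.2 RPKM, and its range overlapped those of SSIIIa above it and SSIVb below it. SSIIb was the lowest member in the mutants, at 6.38 RPKM, below SSIVa in all 3 of these libraries.

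**Figure D1:**
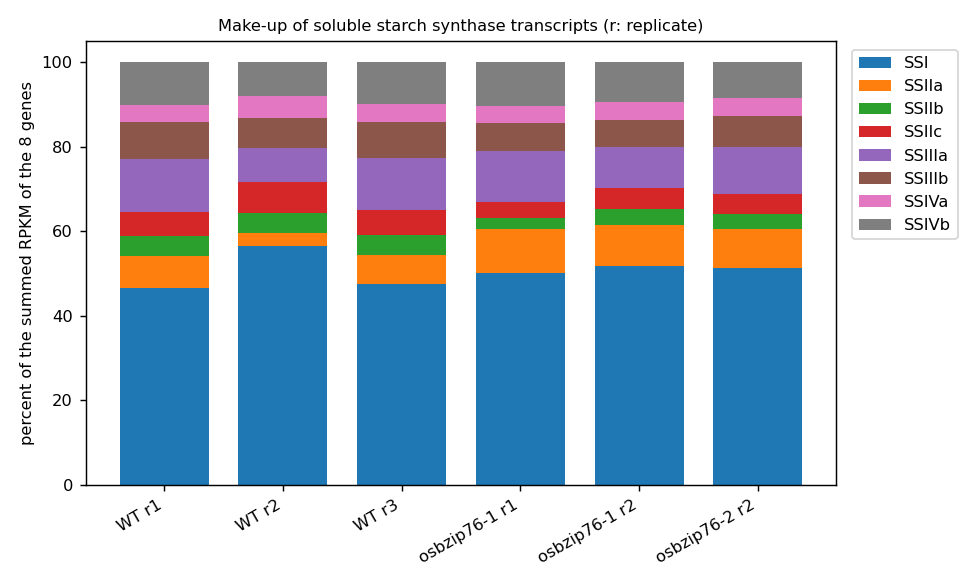
Stacked bars show, for each library, the percent of the summed RPKM of the 8 soluble starch synthase genes that each gene contributed (r is the replicate number). SSI is the largest part in all 6 libraries, and SSIIa ranges from 3.04% in WT replicate 2 to 10.3% in osbzip76-1 replicate 1.

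The class II genes differed in their shares of the summed RPKM. SSIIa contributed 7.72%, 3.04% and 6.86% of the summed RPKM in WT libraries 1 to 3, 10.3% and 9.80% in the osbzip76-1 replicates and 9.27% in the osbzip76-2 library. Every mutant library thus had a higher SSIIa share than every WT library. SSIIb contributed 4.73% ± 0.05 in WT and 3.26% ± 0.58 in the mutants, and SSIIc 6.27% ± 0.96 and 4.604% ± 0.632 (SD, n = 3 each), both without overlap and both lower in the mutants. The SSIIb levels themselves overlapped, at 6.79 RPKM in WT replicate 2 and 7.35 RPKM in osbzip76-1 replicate 2, and its shares were taken of sums that were lowest in WT replicate 2. Of the 8 shares, 1 was without overlap and higher in the mutants and 2 were lower, beside 4.04% and 24.8% of all genes tested when each was divided by the same sums. The summed level of the 8 genes was 183, 142 and 186 RPKM in WT libraries 1 to 3. It was 203 and 199.8 RPKM in the osbzip76-1 pair and 186 RPKM in osbzip76-2. The osbzip76-2 library therefore lay within the range of WT for the sum, and both osbzip76-1 libraries lay above it.

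The main comparison set the 3 mutant libraries against the 3 WT libraries and asked which of the 8 transcripts differ in grains that lack a normal OsbZIP76 gene. No member passed the threshold in either direction (limma, Benjamini-Hochberg adjusted p under 0.05 over all genes tested), beside 0.387% of all genes tested. SSIIa had the largest difference, with a mutant mean 1.85 times the WT mean, and the other 7 members lay between 0.793 and 1.183 times their WT means. At an unadjusted limma p under 0.05 there were 2 members, SSI and SSIIa, beside 13.7% of all genes tested, and 2 of so short a list cannot be told from that share. With voom, a form of limma for read counts, no member passed either, beside 42 of the 21454 genes tested. By voom 1 member had an unadjusted p under 0.05, beside 2887 of the 21454. The median log2 fold change of the 8 was 0.16, beside -0.017 over all genes tested, and 5 of the 8 were above 0, beside 47.3% of all genes tested. Without WT replicate 2 that median was -0.049, beside -0.038 over all genes tested, so the small positive median of the family rested on that library. In that setting 3 members (SSIIa, SSIIb and SSIIIb) had an unadjusted limma p under 0.05, beside 15.1% of all genes tested.

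**Figure D2:**
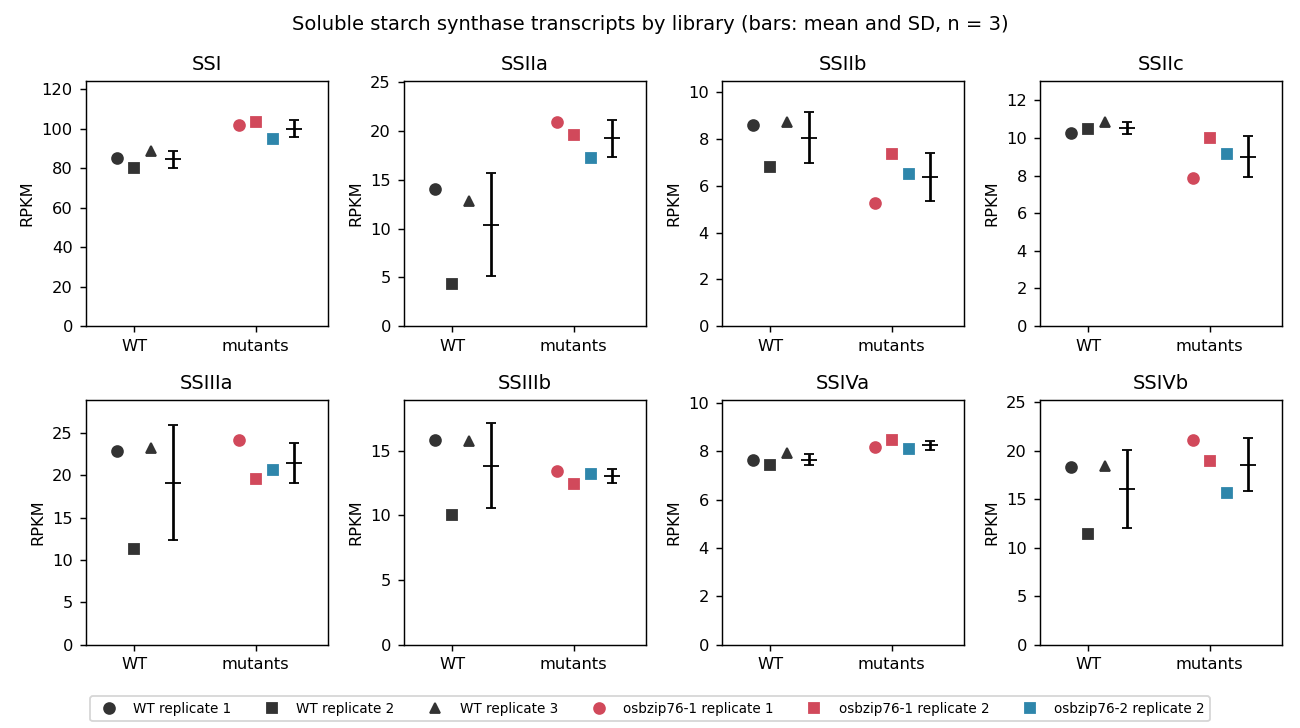
Each panel shows the RPKM of 1 soluble starch synthase in each library, with WT in black, osbzip76-1 in red and osbzip76-2 in blue, and bars for the mean and SD of the 3 WT and the 3 mutant libraries. In SSIIa, SSIIIa, SSIIIb and SSIVb, WT replicate 2 (black square) lies clearly below the other WT libraries. The groups do not overlap in SSI, SSIIa, SSIIc and SSIVa, although for SSIIc and SSIVa the gap lies within counting error.

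SSI, which extends the shortest chains of amylopectin, was slightly higher in the mutants. In WT replicates 1 to 3 it stood at 84.97, 80.2 and 88.8 RPKM, at 102 and 104 RPKM in the osbzip76-1 pair and at 95.03 RPKM in osbzip76-2, from 4735 to 5894 reads per library. All 3 mutant libraries lay above all 3 WT libraries, and WT replicate 2 was close to the others. The limma log2 fold change was 0.24 (SE 0.10, 95% interval 0.0060 to 0.47, unadjusted p = 0.0457, adjusted p = 0.355), so the difference did not pass over all genes tested. With WT replicate 2 left out it was 0.20 (limma adjusted p = 0.379). Over the 6 libraries the highest value of SSI was 1.29 times its lowest.

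Class II gave both the largest positive and the largest negative differences of the family. SSIIa, the endosperm form, stood at 14.1, 4.31 and 12.8 RPKM in WT libraries 1 to 3, at 20.9 and 19.6 RPKM in the osbzip76-1 pair and at 17.2 RPKM in osbzip76-2. Every mutant library was above every WT library, and WT replicate 2 was far below all others. That low value came from 283 reads, with an exact 95% Poisson interval of 3.82 to 4.84 RPKM that covers counting error only, and so cannot reach the other WT libraries. The limma log2 fold change of SSIIa was 0.97 (SE 0.37, 95% interval 0.11 to 1.82, unadjusted p = 0.0320, adjusted p = 0.316). Without WT replicate 2 it was smaller, at 0.48 (SE 0.12, 95% interval 0.20 to 0.77, limma adjusted p = 0.151), and the mutant mean was then 1.43 times the WT mean. The lower SE follows from leaving out the most distant WT value, and only 2 WT libraries remain. The difference was therefore smaller without that library and did not pass the threshold either way. Its direction could not change, because every mutant library lay above every WT library.

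SSIIb, the leaf and early-grain form of class II, went the other way. It stood at 8.62, 6.79 and 8.74 RPKM in WT libraries 1 to 3, at 5.28 and 7.35 RPKM in the osbzip76-1 pair and at 6.51 RPKM in osbzip76-2. The groups overlapped through WT replicate 2, and the other WT libraries lay above all mutant libraries. The limma log2 fold change was -0.30 (SE 0.16, 95% interval -0.67 to 0.073, adjusted p = 0.456). It was -0.40 without WT replicate 2 (unadjusted p = 0.0312, limma adjusted p = 0.286). SSIIc, the remaining class II gene, stood at 10.2, 10.5 and 10.9 RPKM in WT, at 7.86 and 10.004 RPKM in the osbzip76-1 pair and at 9.15 RPKM in osbzip76-2. All mutant libraries lay below all WT libraries, by a margin within counting error for osbzip76-1 replicate 2. Its limma log2 fold change was -0.21 (SE 0.12, adjusted p = 0.499) and was the same, -0.21, without WT replicate 2. SSIIc was also the 1 member for which WT replicate 2 was not the lowest WT library.

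Neither class III gene had a direction that held when single WT libraries were left out. SSIIIa, the endosperm form that makes long chains, stood at 22.9, 11.3 and 23.2 RPKM in WT libraries 1 to 3, at 24.1 and 19.6 RPKM in the osbzip76-1 pair and at 20.7 RPKM in osbzip76-2. The groups overlapped, and WT replicate 2 was far below the other 5 libraries. The limma log2 fold change was 0.22 (SE 0.26, 95% interval -0.39 to 0.83, adjusted p = 0.746), and it turned to -0.10 without WT replicate 2 (limma adjusted p = 0.717). SSIIIb, the leaf and early-grain form, stood at 15.8, 10.04 and 15.7 RPKM in WT libraries 1 to 3. It was at 13.4 and 12.4 RPKM in the osbzip76-1 pair and at 13.2 RPKM in osbzip76-2. Here the mutant libraries lay between WT replicate 2 and the other WT libraries. The limma log2 fold change was -0.057 (SE 0.18, adjusted p = 0.915), it turned to 0.045 without WT replicate 1 and 0.042 without WT replicate 3, and it was -0.26 without WT replicate 2 (unadjusted p = 0.0371, limma adjusted p = 0.301).

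The class IV genes, whose Arabidopsis relatives act in granule initiation, gave small differences. SSIVa stood at 7.64, 7.43 and 7.91 RPKM in WT, at 8.20 and 8.45 RPKM in the osbzip76-1 pair and at 8.08 RPKM in osbzip76-2. It varied least of the 8 over these 6 libraries, with a highest value 1.14 times the lowest. The SSIVa groups did not overlap, although the gap lay within counting error and the mutant mean was only 1.08 times the WT mean. Its limma log2 fold change was 0.094 (SE 0.11, 95% interval -0.16 to 0.35, adjusted p = 0.737), and 0.075 without WT replicate 2 (limma adjusted p = 0.783). SSIVb was the more abundant of the pair in every library, at 18.3, 11.4 and 18.4 RPKM in WT libraries 1 to 3, at 21.1 and 18.9 RPKM in the osbzip76-1 pair and at 15.6 RPKM in osbzip76-2. The alleles lay on either side of WT replicates 1 and 3. The limma log2 fold change for both alleles was 0.22 (SE 0.20, 95% interval -0.25 to 0.69, adjusted p = 0.665), and without WT replicate 2 it was 0.0058 (limma adjusted p = 0.988).

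**Figure D3:**
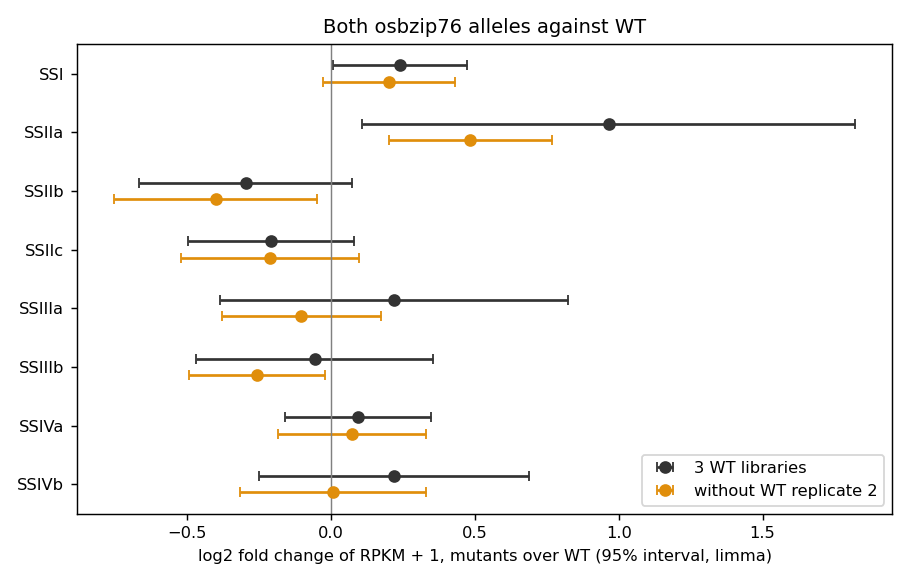
Points are limma log2 fold changes of RPKM + 1 for both alleles against WT, with 95% intervals, using all 3 WT libraries (black) or leaving out WT replicate 2 (orange). SSIIa moves from 0.97 to 0.48 and SSIIIa from 0.22 to -0.10 when that library is left out, while SSI, SSIIc and SSIVa change by little.

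Lack of overlap between the groups is common in these data. Of the 8 members, 3 had all mutant libraries above all WT libraries (SSI, SSIIa and SSIVa), beside 9.34% of all genes tested, and 1 had all of them below (SSIIc), beside 12.3%. Without WT replicate 2 there were 3 above (the same genes) and 3 below (SSIIb, SSIIc and SSIIIb), beside 13.6% and 21.2% of all genes tested. SSI, SSIIa and SSIVa thus separated the genotypes over all 6 libraries, although none passed the test. That they also did so without WT replicate 2 follows from this and adds no support. With 3 libraries against 3, the smallest p that an exact permutation test of 1 gene allows is 0.10 (two-sided).

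WT replicate 2 was low for most of the family. In 7 of the 8 members it lay under WT replicates 1 and 3 alike, beside 48.0% of all genes tested, and below all 5 other libraries in 6 of the 8, beside 33.7%. It was at or under 0.5 times the mean of WT replicates 1 and 3 in 2 of the 8, beside 8.76%. The depth of the shortfall differed by gene. SSIIa was at 32.1% of the mean of WT replicates 1 and 3, SSIIIa at 49.0%, SSIVb at 62.2%, SSIIIb at 63.7% and SSIIb at 78.2%. SSI, SSIVa and SSIIc were at 92.3%, 95.5% and 99.2%. The endosperm forms SSIIa and SSIIIa were therefore the lowest members in relative terms in that library, where BT1, the ADP-glucose transporter of the endosperm, was at 10.9% and GBSSI, the endosperm granule-bound synthase, at 24.0% of the mean of WT replicates 1 and 3. Other genes of the same lists were not low there, with FIE1 at 127%, AGPL1 at 151%, BEI, a branching enzyme, at 107% and PHO1, the plastidial phosphorylase, at 94.1%.

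The ratio of a form of the filling endosperm to its leaf and early-grain form within 1 library does not depend on the total used to scale that library. SSIIa over SSIIb was 1.64, 0.635 and 1.46 in WT replicates 1 to 3, 3.96 and 2.67 in osbzip76-1 and 2.64 in osbzip76-2. The mean ratio was 3.09 ± 0.76 in the mutants and 1.24 ± 0.53 in WT (SD, n = 3 each), or 1.55 in WT without replicate 2, and the ranges did not overlap. SSIIIa over SSIIIb was 1.45, 1.12 and 1.48 in WT replicates 1 to 3, 1.79 and 1.57 in osbzip76-1 and 1.57 in osbzip76-2, again without overlap but by a narrow margin. For both pairs together, SSIIa plus SSIIIa stood at 1.30 ± 0.33 times SSIIb plus SSIIIb in WT and at 2.10 ± 0.26 times in the mutants (SD, n = 3 each). The class IV pair did not separate the genotypes, with SSIVb over SSIVa at 1.53 to 2.39 in WT and 1.94 to 2.57 in the mutants. These ratios are given as a description and were not tested, and the share of other gene pairs without overlap was not computed. SSIIa alone already separated the groups, so its ratio to SSIIb is not separate support.

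**Figure D4:**
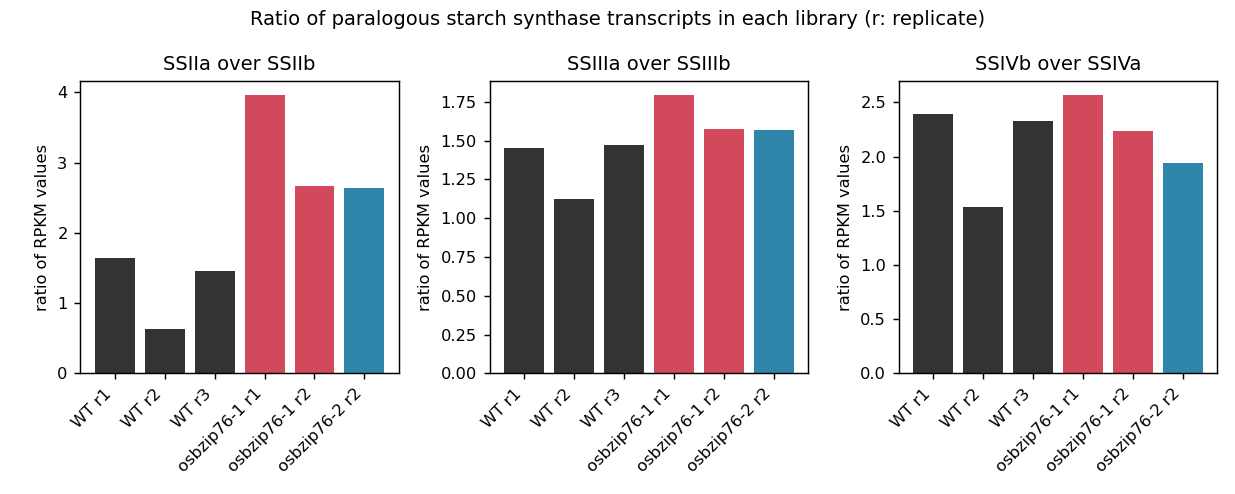
Bars show the ratio of the RPKM values of paralogous synthases in each library, with WT in black, osbzip76-1 in red and osbzip76-2 in blue (r is the replicate number). SSIIa over SSIIb is at least 2.64 in every mutant library and at most 1.64 in WT, SSIIIa over SSIIIb separates the groups narrowly, and SSIVb over SSIVa does not separate them.

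Each allele was also set against the same WT libraries, so these comparisons share their controls. In osbzip76-1, no member passed the threshold, beside 0.382% of all genes tested, and 1 (SSIIa) had an unadjusted limma p under 0.05, beside 13.9%. The log2 fold change of SSIIa in osbzip76-1 was 1.04 (SE 0.43, limma adjusted p = 0.356), and without WT replicate 2 it was 0.56 (SE 0.11, limma adjusted p = 0.0557), the closest that a member came to the threshold in any setting tried. In the 1 osbzip76-2 library no member passed, beside 0.69% of all genes tested, and none had an unadjusted limma p under 0.05, beside 7.06%. SSIIa there had a log2 fold change of 0.82 (SE 0.55, limma adjusted p = 0.966), and without WT replicate 2 it was 0.34 (SE 0.14, unadjusted p = 0.0430, limma adjusted p = 0.280). Voom gave 0 members for osbzip76-1, beside 47 of the 21454 genes tested, and 1 at an unadjusted p under 0.05, beside 2845. The other values for osbzip76-1 and osbzip76-2 were 0.28 and 0.17 for SSI, -0.31 and -0.26 for SSIIb, -0.22 and -0.18 for SSIIc, 0.24 and 0.17 for SSIIIa, -0.065 and -0.039 for SSIIIb, 0.11 and 0.069 for SSIVa, and 0.33 and -0.0022 for SSIVb, all as limma log2 fold changes. No member passed for either allele without WT replicate 2, beside 2.44% of all genes tested for osbzip76-1 and 2.46% for osbzip76-2. At an unadjusted limma p under 0.05 there were then 4 members in osbzip76-1 (SSI, SSIIa, SSIIb and SSIIIb), beside 20.2%, and 1 in osbzip76-2 (SSIIa), beside 16.6%. The log2 fold changes without that library were, for osbzip76-1 and osbzip76-2, 0.24 and 0.13 for SSI, -0.42 and -0.37 for SSIIb, -0.23 and -0.19 for SSIIc, -0.081 and -0.15 for SSIIIa, -0.27 and -0.24 for SSIIIb, 0.088 and 0.049 for SSIVa, and 0.12 and -0.22 for SSIVb.

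Set directly against each other, the alleles gave no member past the threshold, beside 0.214% of all genes tested. By limma none had an unadjusted p under 0.05, beside 4.92%. The largest difference was that of SSIVb, at 15.6 RPKM in osbzip76-2 against 21.1 and 18.9 RPKM in osbzip76-1 (limma log2 fold change -0.33, SE 0.30, 95% interval -1.04 to 0.38, adjusted p = 0.998). For SSIIa it was -0.22, with a 95% interval of -1.61 to 1.16. Without WT replicate 2, which entered these fits through the shared spread, the differences were the same and the intervals narrower. That of SSIIa was then -0.55 to 0.099, and that of SSIVb -0.65 to -0.019 (SE 0.13, unadjusted p = 0.0405, limma adjusted p = 0.320). SSIVb was the 1 member with an unadjusted p under 0.05 in that setting, beside 14.5% of all genes tested, and none passed the threshold, beside 1.23%. The single osbzip76-2 library was assumed to vary like the other groups, and alike action of the alleles on these genes is not shown.

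The other starch genes were set beside the soluble synthases by count and median, and the difference between the lists was not tested. Of 12 genes for ADP-glucose supply, granule-bound synthesis, branching and phosphorolysis, 9 had a log2 fold change above 0 for both alleles against WT, with a median of 0.68, against 5 of the 8 soluble synthases with a median of 0.16. The list first held 17 rows, and 5 were left out, after their values were seen, because no source used here pairs them with a name. With those 5 rows the median was 0.37 and 14 of 17 were above 0, so the size of the median depends on them. None of the 12 passed the threshold by limma or voom, beside 83 and 42 of the 21454 genes tested. By each test 8 had an unadjusted p under 0.05, beside 13.7% of all genes tested by limma and 2887 of 21454 by voom. Without WT replicate 2, 4 of the 12 passed, all higher in the mutants: AGPL2 and AGPS2 (a large and a small subunit of ADP-glucose pyrophosphorylase), BT1 and BEIIb (the endosperm branching enzyme), with limma log2 fold changes of 1.11, 0.80, 0.98 and 0.91, while 0 of the 8 soluble synthases passed. The share of all genes tested that passed in that setting was 0.502%, and 0.39% passed as higher. AGPS2 was chosen after its values were seen. GBSSI had the largest difference of the list, with a limma log2 fold change of 2.64, at 2.10 to 9.79 RPKM in WT and 20.8 to 91.4 RPKM in the mutants. AGPL3, the most abundant of these starch genes at 373 ± 35 RPKM in WT and 353 ± 31 RPKM in the mutants (SD, n = 3 each), had a log2 fold change of -0.081. With all libraries AGPL2, BT1 and BEIIb had log2 fold changes of 1.49, 2.01 and 1.34, each above the 0.97 of SSIIa.

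The likeness of patterns was measured as the root-mean-square difference between log2(RPKM + 1) profiles over the 6 libraries, each centred on its own mean, where 0 would be the same pattern. Among the 19 other starch genes the nearest to SSIIa was BEIIb, at 0.211, with 121, 49.5 and 120.5 RPKM in WT and 250.5, 212 and 224 RPKM in the mutants. BEIIb shared with SSIIa both the low WT replicate 2 and the higher mutant values, which follows from its choice as the nearest. AGPL2, AGPS2, BT1 and GBSSI among the other starch genes showed both traits as well. The nearest to SSI was PHO1, the plastidial phosphorylase, at 0.0572, and the nearest to SSIVa was SSI, at 0.0792. SSIIb and SSIIc were nearest to each other, at 0.115, and so were SSIIIa and SSIVb, at 0.146. The nearest to SSIIIb was AGPL3, at 0.155. Among all genes tested, the nearest to SSI was OsASA2, named for a subunit of anthranilate synthase of tryptophan synthesis, at 0.0236. Nearest to SSIIa was Os06g0714300, at 0.0724, to SSIIb Os07g0645500, at 0.0377, and to SSIIc Os01g0814200, at 0.0249. Nearest to SSIIIa was Os12g0500800, at 0.0382, to SSIIIb Os03g0216300, at 0.0303, to SSIVa Os02g0140300, at 0.0204, and to SSIVb Os04g0605200, at 0.0219. No source used here names these 7 genes. SSIIa had the largest distance to its nearest gene of the 8, on a measure that grows with how much a gene varies.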

How the data were processed

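The authors deposited 1 table of RPKM values with a column per library for 6 of the 7 labelled libraries; osbzip76-2 replicate 1 was not analysed here. Per the submitters' processing notes the genome build was IRGSP-1.0. The aligner, counter and strand use were not given in the sources used here, so reads of overlapping, antisense or closely similar genes cannot be told apart. Poly(A) RNA was used, per the labels' protocols, whose text names endosperm as the source of RNA, while the tissue label is caryopsis. Whole reads were recovered from the steps of the RPKM values (within 0.02 reads), which gave the library totals; a factor common to all 6 libraries would go unseen. Replicates are biological according to the series, and no 2 of a group agreed within sampling noise (chi-square per degree of freedom of 8.95 to 41.9). Genes with a mean of at least 1 RPKM entered limma (version 3.58.1, R 4.3.3, with trend, two-sided) on log2(RPKM + 1), which understates changes of low genes. The 2-group fit set mutants against WT, and a 3-group fit with 1 shared spread gave the allele comparisons. The test was tried on simulated reads. Adjusted p-values are over all genes tested. The alternatives were a pseudocount of 0.1, no filter, median-ratio scaling, array weights, voom, a replicate block and leaving out each library. Gene names came from the table where it gives a symbol; the reference table holds no identifier of this form, so the other names follow the member list and an earlier account of these data and were not checked against an annotation. Listed starch genes and green-tissue markers named in neither were left out. Named were all members, the 4 most abundant and the 4 most changed other starch genes, any past the threshold, and the nearest gene to each member. Members and lists were chosen with earlier results of these data known.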

Additional observations from a re-analysis of the deposited data

How the results depend on the processing

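No member passed the limma threshold in any comparison under any alternative, with adjusted p from 0.0557 (SSIIa in osbzip76-1 without WT replicate 2) upward. Of 368 member values under alternatives, 342 kept their sign. SSI, SSIIa and SSIVa stayed above 0 and SSIIb and SSIIc below 0 in all 12 alternatives for both alleles against WT, where SSIIa ranged from 0.48 to 1.30. For SSI, SSIIa, SSIVa and SSIIc, whose groups did not overlap, leaving out 1 library could not change the sign. Array weights turned SSIIIa to -0.068, -0.027 and -0.095 for both alleles, osbzip76-1 and osbzip76-2 against WT, and median-ratio scaling turned SSIVb in osbzip76-2 to 0.011. With 1 library left out, SSIIIa ranged from -0.10 to 0.38, -0.081 to 0.41 and -0.15 to 0.34 in these 3 comparisons and SSIIIb from -0.26 to 0.045, -0.27 to 0.037 and -0.24 to 0.063. SSIVb in osbzip76-2 ranged from -0.22 to 0.11. Between the alleles the ranges were -0.21 to 0.077 for SSIIIa, -0.025 to 0.078 for SSIIIb, -0.15 to 0.26 for SSIIb and -0.12 to 0.20 for SSIIc. The causes were not tested, and the lower end for SSIIIa against WT came without WT replicate 2.

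Counts over all genes moved far more. For both alleles the 83 genes became 52 without a filter, 1246 with array weights, 42 with voom and 34 to 108 with 1 library left out. For osbzip76-1 the 82 became 38, 1059, 47 and 17 to 525, and for osbzip76-2 the 148 became 282 without a filter, 658 with array weights, 29 with a pseudocount of 0.1 and 36 to 529 with 1 library left out. For the direct comparison the 46 became 179, 256 and 14 without a filter, with array weights and with voom, 2 with a pseudocount of 0.1 and 0 to 264 with 1 library left out. The highest of each leave-one-out range came without WT replicate 2. For both alleles against WT, 6 of the 12 other starch genes passed with array weights, beside 1246 of all genes tested. For this list that setting was added after the data were seen. With 1 library left out 0 to 4 passed, the 4 without WT replicate 2, beside 108 of all genes tested. Without that library 7 passed for osbzip76-1, beside 525 of all genes tested. Leaving out the osbzip76-2 library gives no value for its own comparisons.

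Whether replicate numbers pair the libraries is not settled. The deviations of same-numbered WT and mutant libraries had correlations of 0.219, -0.333 and 0.374, and those of different-numbered ones -0.348 to 0.283. These values cannot decide it, because each group has 3 libraries and the mutant deviations include the difference between the alleles. With the replicate block the counts over all genes were 32 for both alleles, 61 for osbzip76-1, 78 for osbzip76-2 and 32 between the alleles, and no member passed. The replicate block turned SSIIIb to 0.091, 0.033 and 0.24 against WT in these first 3 comparisons and SSIVb in osbzip76-2 to 0.30, and between the alleles it gave 0.18 for SSIIa, -0.045 for SSIIc and 0.24 for SSIIIa. The counting error of a member was at most 6.0% of its value, and osbzip76-2 has 1 library; what limits the tests was not tested.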
